A study of Mus musculus with 6 samples.

Results

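The 10 genes described here encode proteins of the piRNA pathway: Mael, Asz1, Piwil2, Tdrd1, Tdrd9, Ddx4, Mov10l1, Pld6, Gtsf1 and Rnf17. They were taken by gene name from transcript tables of 6 mouse Sertoli cell libraries that hold 50117 named genes, and all 10 were found. Sertoli cells are somatic cells that line the testis tubules and nurse the germ cells. The study compared lines with a GFP reporter on the Y chromosome that was expressed (GFP-positive 2, 4 and 7) with lines in which it was not (GFP-negative 9, 11 and M), 3 libraries of total RNA in each group. The series asks about random clonal expression of the Y chromosome, and its labels give the cell type and the GFP phenotype. They do not state strain, age or treatment, whether each line is 1 clone, or whether the libraries of a group came from separate cultures or animals. The p-values therefore measure the spread between these libraries, which may be technical.

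PiRNAs are small RNAs that guide PIWI proteins, a germline branch of the Argonaute family, to transposon transcripts, which are cut or silenced. Their precursors are unwound and cut at the surface of mitochondria, and the PIWI proteins load and amplify them in nuage, a granule next to the mitochondria held together by Tudor-domain proteins. In the mouse testis the pathway is known from germ cells, where its loss releases transposons and arrests spermatogenesis. Many of its genes are silent in most somatic cells, while some, such as Pld6 and Tdrd7, are expressed more widely.

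The level of a gene is given as scaled FPKM, that is, fragments per kilobase of transcript relative to library depth, summed over the annotated transcripts of the gene and brought to a common scale between libraries. The libraries held 8.25 to 11.8 Gb of aligned bases. The leading principal component held 57.9% of the variance, with the GFP-positive libraries between -73.0 and -57.0, GFP-negative 9 at 21.8, and GFP-negative 11 and M at 99.1 and 77.4. Of 18921 tested features (genes and unnamed assembled loci with a mean of at least 0.5 scaled FPKM), 20.4% passed at an adjusted p under 0.05 in limma, of which 2244 stood higher in GFP-positive libraries and 1618 stood lower. When the FPKM of every library was brought to the same total, a setting called equal sums from here on, the median of all features moved from 0.01 to -0.89 on the log2 scale, and 561 were higher and 7559 lower.

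Every one of the 10 genes was higher in each GFP-positive library than in any GFP-negative library. Groups that did not overlap in this direction made up 22.4% of all tested features. In limma 6 of the 10 genes rose (Mael, Asz1, Ddx4, Piwil2, Gtsf1 and Mov10l1) and none fell, against 11.9% of all tested features that rose. Rnf17, Tdrd9, Tdrd1 and Pld6 did not pass. The median log2 change of the 10 genes was 2.05, against 0.01 for all tested features. These counts carry a choice: all 10 genes had a mean of at least 0.5 scaled FPKM in the GFP-positive libraries, whereas 2 of them (Piwil2 and Pld6) reached it in the GFP-negative libraries, so 8 entered the test through the group in which they were high. The 6 calls depended on single libraries. Without GFP-positive 7 or without GFP-negative M none of the 10 genes passed, although their log2 changes stayed close to those with all libraries, and over all features 39 and 37 passed in these fits. With no filter on low values 3 of the 10 passed (Mael, Piwil2 and Gtsf1).

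**Figure D1:**
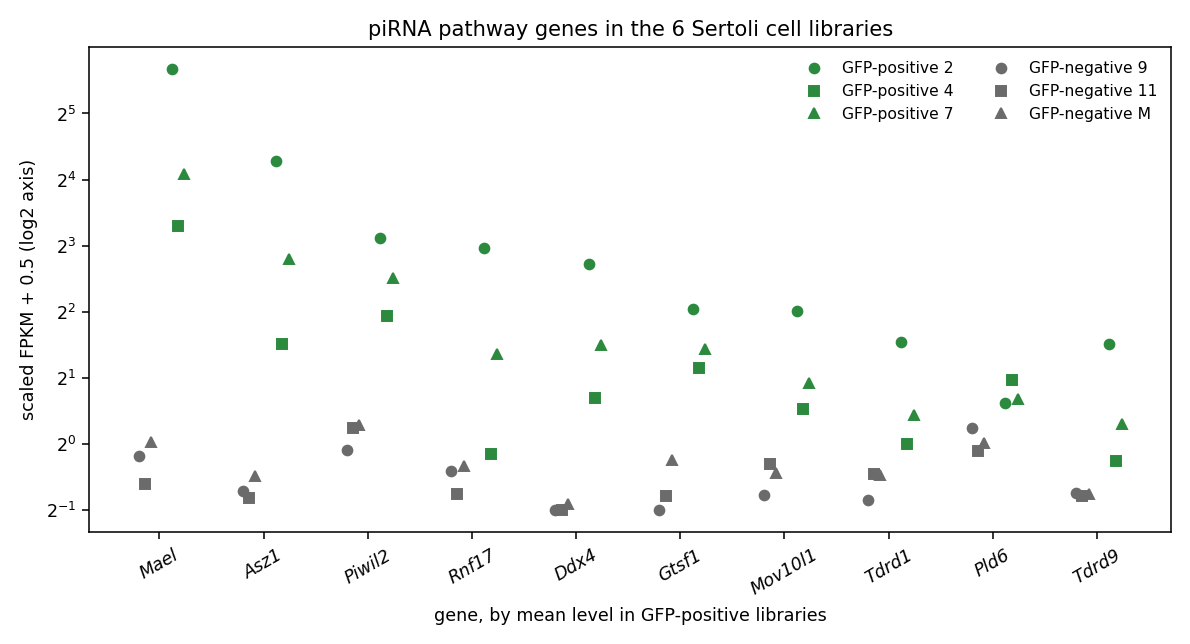
Scaled FPKM + 0.5 (log2 axis) of the 10 piRNA pathway genes, ordered by mean level in the GFP-positive libraries, with 1 point per library (green, GFP-positive; grey, GFP-negative). The green points of each gene lie above its grey points, and GFP-positive 2 is the highest library for each gene except Pld6.

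The 10 genes lie on 8 chromosomes, and their promoter sequences were compared for letters in common. RefSeq sequences (GRCm38.p6) from 250 bases before to 50 after each start matched 8 of the 10 genes by symbol, with 11 starts. Piwil2 and Rnf17 had no entry. The letters CACGTG, an E-box that reads the same on both strands, were in at least 1 window of 6 of the 8 genes (Mael, Ddx4, Tdrd1, Tdrd9, Mov10l1 and Pld6) and in none of Asz1 and Gtsf1. They occur in 8.09% of all 27025 genes with a promoter entry and in 12.2% of the 9793 tested genes with one. Among lists described below, the share was 33.3% of 15 other piRNA pathway genes, 25% of 12 spermatocyte markers and 8.33% of 12 spermatogonial markers. It was 7.69% of 13 somatic small RNA and methylosome genes and 12.5% of 8 Sertoli markers. The letters GCGGGA or their reverse complement were in 2 of the 8 genes, against 22% of all genes and 41% of tested genes. AACNGT or its reverse complement was in 2 of the 8, against 28.9% of all genes and 24% of tested genes. None of the 3 strings contains another, and a match is a description of the sequence only. The 250 bases before the start are shown 5′ to 3′ on the strand of the gene, with CACGTG in capitals, for the gene with the largest change (Mael, chr1:166238745-166238994, minus strand), the germ cell marker Ddx4 (chr13:112652311-112652560, minus strand), the first and the downstream start of Tdrd1 (chr19:56825959-56826208 and chr19:56830462-56830711, plus strand), and a gene that rose without the letters (Asz1, chr6:18109062-18109311, minus strand).
Mael: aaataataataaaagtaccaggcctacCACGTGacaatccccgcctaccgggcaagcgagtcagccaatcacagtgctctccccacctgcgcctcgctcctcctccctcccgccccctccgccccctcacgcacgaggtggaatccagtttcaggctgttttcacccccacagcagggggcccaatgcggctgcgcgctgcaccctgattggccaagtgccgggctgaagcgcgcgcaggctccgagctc
Ddx4: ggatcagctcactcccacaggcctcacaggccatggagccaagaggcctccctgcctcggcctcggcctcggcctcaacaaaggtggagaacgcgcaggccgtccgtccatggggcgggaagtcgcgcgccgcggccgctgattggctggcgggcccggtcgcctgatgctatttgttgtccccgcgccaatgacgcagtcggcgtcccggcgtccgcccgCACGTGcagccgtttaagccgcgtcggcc
Tdrd1 first start: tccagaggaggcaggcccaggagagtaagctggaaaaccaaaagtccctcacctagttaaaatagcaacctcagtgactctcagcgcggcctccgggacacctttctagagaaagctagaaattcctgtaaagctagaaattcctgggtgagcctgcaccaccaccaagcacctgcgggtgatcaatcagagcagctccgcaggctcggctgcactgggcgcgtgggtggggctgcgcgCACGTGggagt
Tdrd1 downstream start: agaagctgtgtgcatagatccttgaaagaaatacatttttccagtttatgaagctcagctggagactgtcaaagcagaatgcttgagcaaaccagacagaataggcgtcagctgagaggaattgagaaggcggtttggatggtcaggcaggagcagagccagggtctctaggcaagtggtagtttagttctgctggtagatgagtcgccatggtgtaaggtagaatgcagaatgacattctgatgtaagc
Asz1: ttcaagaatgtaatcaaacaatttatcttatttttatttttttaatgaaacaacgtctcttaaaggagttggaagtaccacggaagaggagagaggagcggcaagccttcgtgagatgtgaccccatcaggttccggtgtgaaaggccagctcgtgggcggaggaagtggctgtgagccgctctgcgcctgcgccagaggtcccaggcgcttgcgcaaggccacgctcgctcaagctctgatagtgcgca
The match begins 223 bases before the start of Mael, 29 before that of Ddx4 and 11 before the first start of Tdrd1. The downstream start of Tdrd1 lies 4503 bp after the first in RefSeq as in the deposited tables. The Tdrd1 level of the GFP-negative libraries, 0.0586 to 0.233 scaled FPKM, was assigned to a form with this start, as given below. At so few aligned bases that assignment is uncertain, and a change of start between the groups was not tested. The window of the downstream start has no match, 3 CpG pairs and a ratio of observed to expected CpG of 0.216. The first start has 20 CpG pairs and a ratio of 0.733. Over the 11 windows the median ratio was 0.701, against 0.384 for all promoters and 0.758 for promoters of tested genes.

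Among the genes around the PIWI protein itself, Piwil2 encodes MILI, the PIWI protein that binds piRNAs from fetal germ cells onward. Piwil2 (chromosome 14, 70609926 to 70666862, mm39, minus strand) stood at 8.19, 3.33 and 5.18 scaled FPKM in GFP-positive 2, 4 and 7, and at 0.442, 0.685 and 0.722 in GFP-negative 9, 11 and M. It had the highest mean of the 10 genes in the GFP-negative libraries. Its level rose from 0.616 ± 0.152 to 5.57 ± 2.45 scaled FPKM (SD, n = 3), a log2 change of 2.37 (SE 0.35, limma adjusted p = 0.0108). All log2 changes are of scaled FPKM + 0.5, which understates the change of genes at low levels.

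Gtsf1 encodes a small zinc finger protein that PIWI proteins need to cut their targets. Gtsf1 (chromosome 15, 103310832 to 103338897, minus strand) was at 3.62, 1.74 and 2.22 scaled FPKM in GFP-positive 2, 4 and 7. In the GFP-negative libraries it was listed at 0 in 9 and stood at 0.0816 in 11 and 0.352 in M. The groups did not overlap, and among the genes that passed Gtsf1 was the most even across the GFP-positive libraries, with GFP-positive 2 standing 2.08 times above GFP-positive 4. The log2 change was 2.22 (SE 0.35, limma adjusted p = 0.0123).

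Ddx4 encodes the mouse VASA helicase, a nuage protein widely used to mark germ cells. Ddx4 (chromosome 13, 112734867 to 112789009, minus strand) was at 6.15, 1.13 and 2.34 scaled FPKM in GFP-positive 2, 4 and 7. Its annotated transcripts were listed at 0 in GFP-negative 9 and 11 and at 0.037 in GFP-negative M. The log2 change was 2.61 (SE 0.49, limma adjusted p = 0.0156). A value listed at 0 does not show absence here, since an unnamed Ddx4 transcript held reads in all 3 GFP-negative libraries, as described below. Of 8412 named genes with at least 5 scaled FPKM in some library, 36 were listed at 0 in another. That count cannot tell absence from a missed level.

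The next genes act in the making of piRNAs at the mitochondrion and in nuage. Mael encodes Maelstrom, a nuage protein required for transposon silencing in the male germline, and was the most abundant of the 10 genes in the GFP-positive libraries. Mael (chromosome 1, 166028770 to 166066316, minus strand) stood at 50.3, 9.34 and 16.5 scaled FPKM in GFP-positive 2, 4 and 7, and at 0.381, 0.16 and 0.523 in GFP-negative 9, 11 and M. The lowest GFP-positive library was thus well above the highest GFP-negative one. Mael had the largest log2 change of the 10 genes, 4.6 (95% interval 3.32 to 5.88, limma adjusted p = 0.00964), and 3.94 without GFP-positive 2. The aligned bases on its annotated transcripts were 949.4, 152.8 and 277.8 kb in the GFP-positive and 6.44, 2.42 and 7.16 kb in the GFP-negative libraries.

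Asz1 encodes GASZ, a scaffold that ties nuage to the mitochondrial surface. Asz1 (chromosome 6, 18050963 to 18109060, minus strand) was at 19.0, 2.37 and 6.44 scaled FPKM in GFP-positive 2, 4 and 7, and at 0.114, 0.07 and 0.22 in GFP-negative 9, 11 and M. It spanned an 8.03-fold range between GFP-positive 2 and 4, yet the lowest of these lay above all GFP-negative values. The log2 change was 3.53 (SE 0.62, limma adjusted p = 0.0141), and 2.82 without GFP-positive 2.

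Mov10l1 encodes the RNA helicase that binds piRNA precursors and feeds them into processing. Mov10l1 (chromosome 15, 88867112 to 88939355, plus strand) was at 3.55, 0.952 and 1.40 scaled FPKM in GFP-positive 2, 4 and 7, and at 0.0862, 0.312 and 0.237 in GFP-negative 9, 11 and M. It rose from 0.212 ± 0.115 to 1.97 ± 1.39 scaled FPKM (SD, n = 3), a log2 change of 1.67 (SE 0.42, limma adjusted p = 0.0305). Its call was the least stable of the 6. It was also lost without GFP-positive 2 (adjusted p = 0.0561), without GFP-negative 11 (0.0623), with no filter (0.0912) and under equal sums (0.0904).

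Pld6 encodes the mitochondrial endonuclease, Zucchini in flies, that cuts piRNA precursors. It differed from the other 9 genes in its pattern. Pld6 (chromosome 11, 59674723 to 59678471, minus strand) was at 1.05, 1.46 and 1.12 scaled FPKM in GFP-positive 2, 4 and 7, and at 0.684, 0.428 and 0.511 in GFP-negative 9, 11 and M. It was highest in GFP-positive 4, the lowest GFP-positive library for the other 9 genes, and the groups lay close together. The log2 difference of 0.71 (95% interval 0.07 to 1.36, limma adjusted p = 0.0998) did not pass, and it was 0.04 under equal sums, 0.935 above the median of all features with that setting.

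The remaining 3 genes encode Tudor-domain proteins, which bind methylated arginines of PIWI proteins. Rnf17 encodes a Tudor protein with a RING finger that limits piRNA amplification in spermatocytes. Rnf17 (chromosome 14, 56640038 to 56762489, plus strand) was at 7.33, 0.403 and 2.07 scaled FPKM in GFP-positive 2, 4 and 7, and at 0.258, 0.0943 and 0.294 in GFP-negative 9, 11 and M. GFP-positive 4 stood just above the highest GFP-negative library, and the ratio of GFP-positive 2 to 4, 18.2, was the widest of the 10 genes. The log2 difference of 1.89 (95% interval 0.31 to 3.47, limma adjusted p = 0.0833) did not pass. Without GFP-positive 4 it was 2.69 (adjusted p = 0.0368).

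Tdrd1 encodes a nuage Tudor protein that partners MILI. Tdrd1 (chromosome 19, 56814641 to 56858444, plus strand) was at 2.42, 0.503 and 0.854 scaled FPKM in GFP-positive 2, 4 and 7, and at 0.0586, 0.233 and 0.227 in GFP-negative 9, 11 and M. The log2 difference of 1.24 (95% interval 0.27 to 2.22) did not pass (limma adjusted p = 0.0707). Tdrd9 encodes a Tudor protein with a helicase domain that acts with the nuclear PIWI protein. Tdrd9 (chromosome 12, 111937993 to 112035288, plus strand) was at 2.36, 0.341 and 0.741 scaled FPKM in GFP-positive 2, 4 and 7, and at 0.0988, 0.0829 and 0.0912 in GFP-negative 9, 11 and M. The GFP-negative values of Tdrd9 were the most even of the 10 genes, and its log2 difference of 1.29 (95% interval 0.25 to 2.32) did not pass (limma adjusted p = 0.0757). Tdrd9 overlaps Rd3l on the opposite strand by 2207 bp, and Rd3l had a mean of 0 scaled FPKM in both groups.

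**Figure D2:**
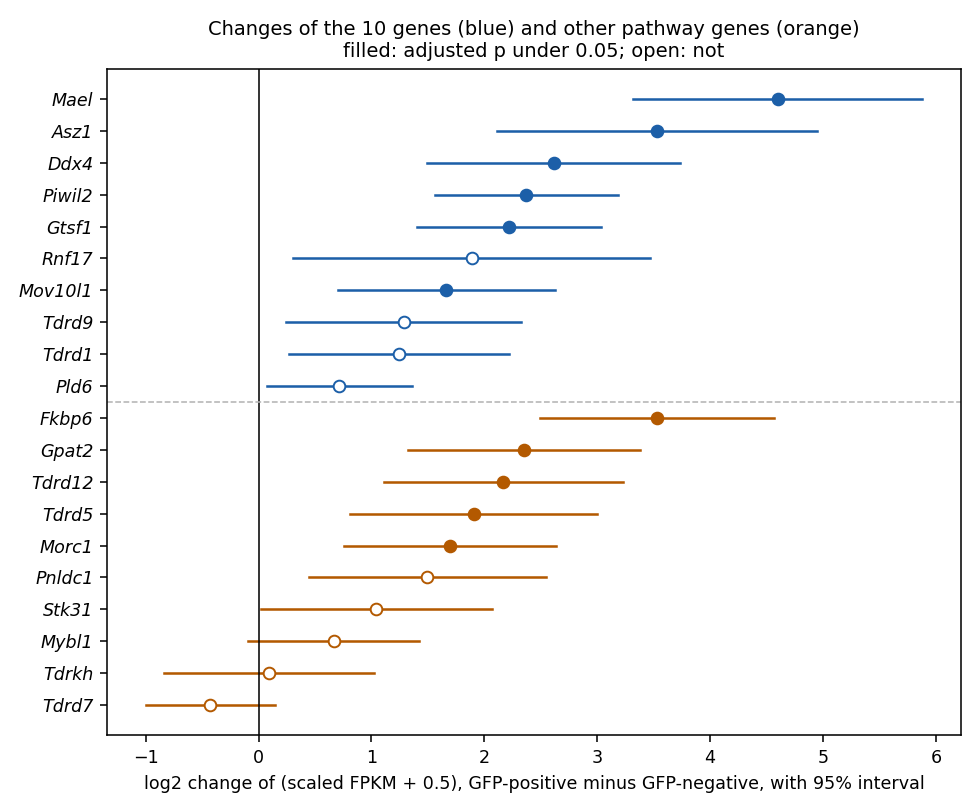
Log2 change of scaled FPKM + 0.5, GFP-positive minus GFP-negative, with its 95% interval from limma, for the 10 genes (blue) and the 10 other piRNA pathway genes above the filter (orange). Filled points passed at an adjusted p under 0.05, 6 of the blue and 5 of the orange, and of the orange genes only Tdrd7 has an estimate below 0. The point of Gpat2, listed at 0 in the GFP-negative libraries, depends on the added 0.5.

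By mean level in the GFP-positive libraries, which FPKM allows between genes, the order was Mael (25.4), Asz1 (9.27), Piwil2 (5.57), Rnf17 (3.27), Ddx4 (3.21), Gtsf1 (2.52), Mov10l1 (1.97), Tdrd1 (1.26), Pld6 (1.21) and Tdrd9 (1.15). The range over libraries of each gene overlapped that of the next, so no neighbours in this order stood apart. Mael was above Asz1, Piwil2 above Rnf17, Gtsf1 above Mov10l1 and Mov10l1 above Tdrd1 in 3 of 3 libraries. In the GFP-negative libraries Piwil2 (0.616) and Pld6 (0.541) came first, ahead of Mael (0.355).

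The GFP-positive libraries differed from each other in a shared way. For 9 of the 10 genes GFP-positive 2 was highest, 7 intermediate and 4 lowest. The same order held for 24.2% of all tested features. The summed level of the 10 genes was 103.9, 21.6 and 38.8 scaled FPKM in GFP-positive 2, 4 and 7, and 2.12, 2.15 and 3.21 in GFP-negative 9, 11 and M. GFP-negative 9 lay closest to the GFP-positive libraries on the first principal component, and its sum was about that of GFP-negative 11.

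The transcripts behind these values differed between the groups at some loci. Mael came almost whole from its 12-exon transcript of 1549 nt, which held 96.2 to 97.2% of the locus in the GFP-positive libraries. Tdrd1 came mostly from transcripts that start at the first promoter in the GFP-positive libraries. The 26-exon form of 4914 nt held 68.5% of the locus in GFP-positive 2 and 100% in 4 and 7. In the 3 GFP-negative libraries all of the Tdrd1 level was assigned to a 25-exon transcript of 5187 nt that starts 4503 bp further downstream, a form that held 11.0% in GFP-positive 2 and was listed at 0 in 4 and 7. These GFP-negative values rest on 3.32, 10.9 and 10.4 kb of aligned bases, so the assignment between forms is uncertain.

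Unnamed transcripts, assembled by the authors and not counted in the values above, lay at 3 of the 10 loci. At Ddx4 an unnamed 22-exon transcript of 3040 nt, close in exon number and length to the annotated 22-exon form of 3012 nt, stood at 1.89, 0 and 0.0155 scaled FPKM in GFP-positive 2, 4 and 7, and at 0.597, 0.0942 and 0.389 in GFP-negative 9, 11 and M. It held 91.3 to 100% of the Ddx4 locus in the GFP-negative libraries. With it added, the log2 change of Ddx4 was 1.99 (limma adjusted p = 0.0318) in place of 2.61. At Rnf17 an unnamed 26-exon transcript of 3516 nt ends before the last exons of the 37-exon form. It held 37.0, 76.9 and 38.7% of the locus in GFP-positive 2, 4 and 7. With it added Rnf17 passed, with a log2 change of 2.71 (limma adjusted p = 0.0127). At Piwil2 the unnamed 23-exon transcript held 16.5 to 41.2% of the locus in the GFP-positive and 32.1 to 60.1% in the GFP-negative libraries, and the log2 change with it was 2.26 (limma adjusted p = 0.0117).

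**Figure D3:**
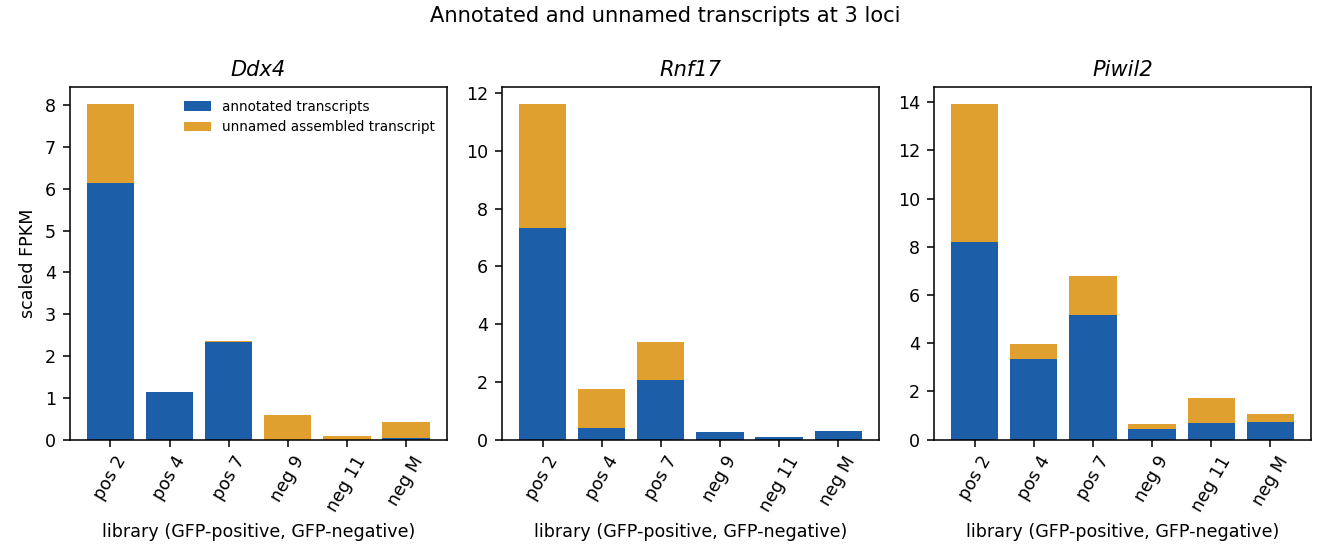
Scaled FPKM of annotated transcripts (blue) and of the unnamed assembled transcript (orange), stacked, at the Ddx4, Rnf17 and Piwil2 loci in each library. Nearly all of the Ddx4 level in the GFP-negative libraries is orange, and most of the Rnf17 level in GFP-positive 4 is orange.

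Of 21 other piRNA pathway genes, 10 were above the filter. Of these 5 rose and none fell, against 11.9% and 8.55% of all tested features, and the median log2 change was 1.60, against 0.01. Like most of the 10 genes, each of the 5 had a mean under 0.5 scaled FPKM in the GFP-negative libraries and entered the test through the group in which it was high. Fkbp6, which encodes a co-chaperone for loading piRNAs, was at 18.7, 5.76 and 8.31 scaled FPKM in GFP-positive 2, 4 and 7, and at 0.152, 0.378 and 0.698 in GFP-negative 9, 11 and M. No other gene of this list had as large a log2 change (3.53, SE 0.45, limma adjusted p = 0.00969). Gpat2, whose mitochondrial product takes part in making piRNAs, was at 4.15, 0.847 and 2.15 scaled FPKM in the GFP-positive libraries and listed at 0 in the 3 GFP-negative libraries (limma adjusted p = 0.0159). The Tudor genes Tdrd12 (log2 change 2.17, adjusted p = 0.0202) and Tdrd5 (1.91, adjusted p = 0.0303) and the silencing factor gene Morc1 (1.70, adjusted p = 0.0278) also rose in limma. Without GFP-positive 7 or GFP-negative M none of the 5 passed, and without GFP-negative 11, 2 did.

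The other 5 tested genes of this list did not pass. Pnldc1, which encodes the nuclease that trims piRNA ends, had a log2 difference of 1.5 (limma adjusted p = 0.0521). Stk31, which also carries a Tudor domain, had 1.04 (adjusted p = 0.123), and Mybl1, the transcription factor gene that drives the pathway in pachytene spermatocytes, had 0.67 (adjusted p = 0.172). Tdrkh, which links PIWI proteins to mitochondria, had 0.09 (adjusted p = 0.888), and Tdrd7 had -0.43 (adjusted p = 0.235). Pnldc1, Mybl1, Tdrkh and Tdrd7 had a mean over 0.5 scaled FPKM in the GFP-negative libraries. Tdrd7 was lower in each GFP-positive library than in any GFP-negative library, as were 20.7% of all tested features. Below the filter were 11 genes. Piwil1, which encodes the PIWI protein of pachytene cells, was at most 0.0967 scaled FPKM in any library. Piwil4, which encodes the nuclear PIWI protein of fetal germ cells, was at 1.19, 0.129 and 0.251 in GFP-positive 2, 4 and 7 and at most 0.121 in the GFP-negative libraries.

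A further list held genes of the somatic small RNA machinery and of the methylosome, which methylates arginines bound by Tudor proteins. Of 15 tested, 3 genes of microRNA processing and action fell and none rose, and the median of their log2 changes was -0.67. Among all tested features 8.55% fell. Ago2, which encodes the slicing Argonaute of microRNAs, was at 2.34, 3.42 and 2.68 scaled FPKM in GFP-positive 2, 4 and 7, and at 8.66, 18.9 and 12 in GFP-negative 9, 11 and M (log2 change -1.99, limma adjusted p = 0.0130). Drosha, the nuclear microRNA processing enzyme gene (-2.11, adjusted p = 0.0186), and Ago1 (-1.09, adjusted p = 0.0278) also fell in limma. Mov10, the broadly expressed relative of Mov10l1, had a log2 difference of -1.10 (adjusted p = 0.142), and the methylosome genes Prmt5 and Wdr77 had -0.55 (adjusted p = 0.305) and 0.05 (adjusted p = 0.928). Without GFP-positive 7 or GFP-negative M none of the 3 passed, and without GFP-positive 4, 1 did. Under equal sums, which lower the median of all features, 12 of the 15 fell.

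Some markers of germ cells outside the 10 genes rose in the same libraries. Of 15 spermatogonial markers 12 were tested, and 7 rose and 1 fell, where 11.9% of all tested features rose and 8.55% fell. Those that rose included the transcription factor genes Sohlh2 (log2 change 3.16, limma adjusted p = 0.00681) and Sohlh1 (2.47, adjusted p = 0.0131) and the RNA-binding protein genes Dnd1 (2.99, adjusted p = 0.0105), Dazl (3.57, adjusted p = 0.0249) and Lin28a (1.81, adjusted p = 0.0413). Etv5 fell (-1.31, adjusted p = 0.0426). Etv5 and Uchl1 were the 2 of the 15 with a mean of at least 0.5 scaled FPKM in the GFP-negative libraries, at 10.8 and 94.2. Of 14 spermatocyte markers 5 were tested and 4 rose: Tex101, H1f6, Sycp3 and Hormad1. Of these 11 markers that rose, all except H1f6 had a mean under 0.5 scaled FPKM in the GFP-negative libraries and so entered the test through the group in which they were high. Stra8, Nanos3, Kit, Uchl1 and Rec8 were tested and did not pass. Tex101 rose in each fit that left out 1 library. Without GFP-positive 7 or GFP-negative M no spermatogonial marker and no other spermatocyte marker passed. Without GFP-negative 9 or 11, 4 and 3 spermatogonial and 2 and 2 spermatocyte markers rose, and without GFP-positive 2, 2 spermatocyte markers did. Spermatocyte markers summed to 31.3 to 61.5 scaled FPKM in the GFP-positive and 2.54 to 3.60 in the GFP-negative libraries. Spermatogonial markers summed to 109.3 to 125.4 in the GFP-positive and 97.1 to 114.3 in the GFP-negative libraries. Uchl1 led this sum in every library except GFP-positive 2, where it was at 19.0 and Dazl at 50.8. In the GFP-negative libraries Uchl1 was at 89.9 to 96.6 and made up most of the sum. The likeness of these sums therefore does not describe the spermatogonial markers that rose. Of 11 spermatid markers none was above the filter. Their summed level was 0.291 to 0.696 in the GFP-positive and 0.161 to 0.404 in the GFP-negative libraries, and the protamine genes Prm1 and Prm2 and Tnp2 were listed at 0 in all 6.

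The order in which GFP-positive 2 was highest and 4 lowest also held for 8 of the 15 spermatogonial markers (53.3%) and 10 of the 14 spermatocyte markers (71.4%). These lists include 3 and 9 markers below the filter, whereas the share of 24.2% for all features is over tested ones only. The shares are therefore not directly comparable. The remaining markers ran in another order. Of these Dazl, Sall4, Nanos3 and Etv5 were also highest in GFP-positive 2 among the GFP-positive libraries. Stra8, Rec8, Kit, Uchl1, Hormad2, Meiob and Pgk2 were not. The values of 2 of the latter, chosen after they were seen, are given here. Stra8, a gene of meiotic entry, was at 0.083, 3.67 and 11.1 scaled FPKM in GFP-positive 2, 4 and 7, and the meiotic cohesin gene Rec8 at 1.11, 9.09 and 4.58. Among the GFP-positive libraries both Stra8 and Rec8 were lowest in 2, where 9 of the 10 piRNA pathway genes were highest. In bulk RNA a larger share of cells that express a gene and more of its RNA per cell cannot be told apart, and the part of germ cells in the results was not tested.

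Sertoli markers were present in all 6 libraries. Of 19 listed, 17 were tested, and 17 had a mean over 0.5 scaled FPKM in each group. Of the 17, Dmrt1 rose (log2 change 1.15, limma adjusted p = 0.0174), Sox9 (-1.86, adjusted p = 0.0132) and Gata4 (-1.77, adjusted p = 0.0407) fell, and 14 did not pass, which is near the 11.9% that rose and the 8.55% that fell among all tested features. Without GFP-positive 7 or GFP-negative M none of the 3 passed. Gata4 also missed the threshold when GFP-positive 2, GFP-positive 4 or GFP-negative 9 was left out. When FPKM was summed per assembled locus, the value at its locus was 0.77. Such a sum takes in all transcripts of the locus, also those of other genes where it holds any, so it may not describe Gata4 alone. Dmrt1 did not pass under equal sums or quantile normalization. The summed level of the list was 2116 to 3864 in the GFP-positive and 910.5 to 3689 in the GFP-negative libraries, mostly from Clu, so it did not follow the piRNA pathway genes. Rhox5 and Rhox8 were below the filter. Of the other somatic markers (6 peritubular myoid, 7 Leydig, 6 macrophage and 4 endothelial), none rose and the macrophage marker Lyz2 fell (-1.84, limma adjusted p = 0.0182) and did not pass once GFP-positive 4, GFP-positive 7 or GFP-negative M was left out. Their summed levels were 133.3 to 1902 scaled FPKM in GFP-positive and 323.4 to 872.6 in GFP-negative libraries for myoid, 36.8 to 88.2 and 71.2 to 86.9 for Leydig, 2.76 to 3.17 and 4.09 to 9.35 for macrophage, and 3.55 to 6.4 and 7.49 to 12.3 for endothelial markers. The Leydig genes Cyp11a1 and Star, of steroid synthesis, had log2 differences of 0.02 (adjusted p = 0.984) and -0.79 (adjusted p = 0.286), and the endothelial cadherin gene Cdh5 had -0.88 (adjusted p = 0.0878). Acta2 and Tagln, of the myoid list, were lowest in GFP-positive 2 among all 6 libraries, at 46.9 and 83.7.

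**Figure D4:**
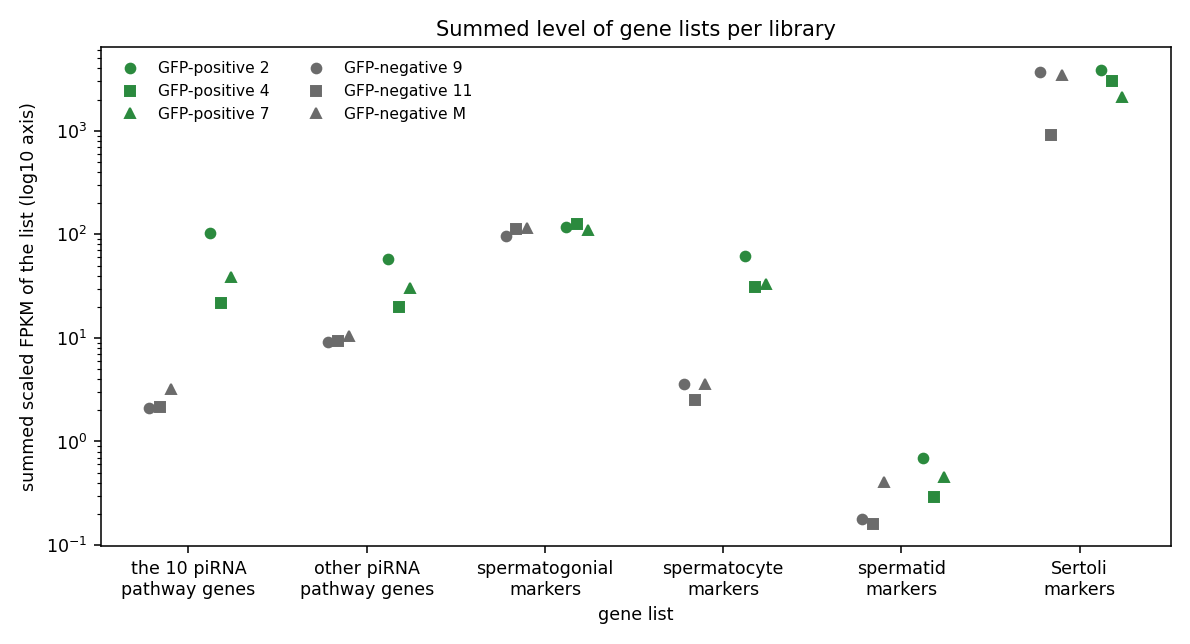
Summed scaled FPKM (log10 axis) of gene lists in each library, with 1 point per library (green, GFP-positive; grey, GFP-negative). The 10 piRNA pathway genes sum to 21.6 to 103.9 in the GFP-positive and 2.12 to 3.21 in the GFP-negative libraries, while spermatid markers stay under 1 and Sertoli markers overlap between the groups.

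Of the 20 nearest tested genes, 1 on each side of each locus, 3 rose, 3 fell and 14 did not pass. These counts lie near the shares of all tested features, of which 11.9% rose and 8.55% fell. Ildr2, 15.4 kb from Mael, fell from 42.1 ± 9.22 to 16.1 ± 2.67 scaled FPKM (SD, n = 3; log2 change -1.35, limma adjusted p = 0.0177). Beside Rnf17, Parp4 fell (-1.69, adjusted p = 0.0121) and Sdr39u1, at a distance of 502.3 kb, rose (0.99, adjusted p = 0.0343). Atp5mpl, 4.58 kb from Tdrd9, rose (2.34, adjusted p = 0.0186), as did Flcn, 3.76 kb from Pld6 (1.05, adjusted p = 0.0356), and Itga5 fell beside Gtsf1 (-2.71, adjusted p = 0.0263). Slc38a9, 8.28 kb from Ddx4, and Polr3d, 9.34 kb from Piwil2, had log2 differences of 0.15 and 0.39 and did not pass.

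Tested named genes outside the 10 were searched for alike profiles, leaving out provisional symbols (Gm numbers, Rik names, pseudogene names and similar). Closest to the mean log2 profile of the 10 genes over the 6 libraries were Xlr, Tdrd12, Gpat2, Luzp4 and Pramel3. Their root mean square distances were 0.10 to 0.15 on the log2 scale. Among the 10 genes themselves Piwil2 lay closest to their mean (0.20) and Mael farthest (1.22), followed by Pld6 (0.96). Xlr stood at 4.17, 0.867 and 1.77 scaled FPKM in GFP-positive 2, 4 and 7 and at most 0.0271 in the GFP-negative libraries. Xlr, Luzp4 and Pramel3 lie on the X chromosome. Tdrd12 and Gpat2 are also in the list of other pathway genes.

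**Figure D5:**
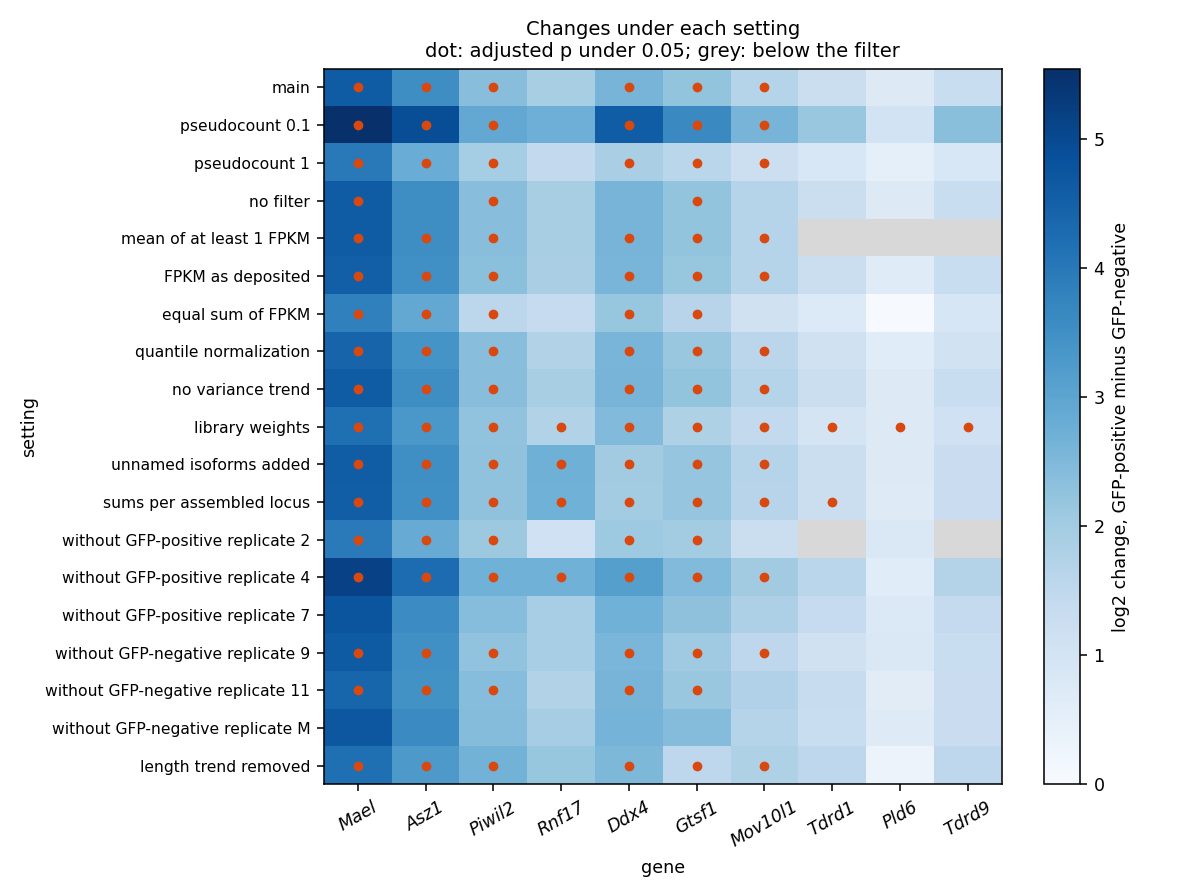
Log2 change of each of the 10 genes (columns) under each processing setting (rows), with a dot where the adjusted p was under 0.05 and grey where the gene was below the filter. All estimates shown are above 0, and no dot stands in the fits without GFP-positive 7 or GFP-negative M.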

How the data were processed

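Total RNA was sequenced from 6 Sertoli cell libraries after ribosomal RNA removal, as strand-specific dUTP libraries, per the labels' protocols. Reads were trimmed, aligned to mm39 and assembled with tools that the submitters' processing notes list as Trimmomatic, HISAT2 and StringTie. The strand setting of the assembly and the versions are not given in the sources used here. The authors deposited, per the file headers, FPKM and per-base coverage signal for each annotated or assembled transcript. Coverage divided by FPKM gave the aligned bases per library. Intervals of counting error are not given, since the tables hold no read counts.

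FPKM was summed per gene name, and unnamed transcripts per assembled locus as features of their own. The scale between libraries was set by median-of-ratios factors from 15389 features. Features with a longest transcript under 200 nt or a mean under 0.5 scaled FPKM were left out. The test used limma 3.58.1 (R 4.3.3) on log2 values of scaled FPKM plus 0.5 (mean-variance trend, Benjamini-Hochberg adjustment over 18921 features, threshold 0.05), GFP-positive minus GFP-negative. An exact permutation of 3 against 3 libraries cannot give a p below 0.1. The text names all 10 genes, from each other list up to 6 genes past the threshold by adjusted p (with none, the 2 tested genes of highest mean), members of a list at 0 in all libraries, the nearest tested neighbours and the 5 most alike genes. Other genes named (Pnldc1, Stk31, Mybl1, Tdrkh, Tdrd7, Piwil1, Piwil4, Mov10, Prmt5, Wdr77, Stra8, Nanos3, Kit, Sall4, Rec8, Hormad2, Meiob, Pgk2, Uchl1, Clu, Rhox5, Rhox8 and Rd3l) were chosen after their values were seen. The members and lists were chosen with earlier results of these data known. There were 18 alternatives, 17 planned and 1 (removal of a length trend) added after the data were seen. Figures were drawn with matplotlib 3.10.9.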

Additional observations from a re-analysis of the deposited data

Results flagged for a closer look

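The unnamed 26-exon transcript at the Rnf17 locus lies outside the gene values of the report. It was higher in each GFP-positive library than in any GFP-negative library, as were 22.4% of all tested features. It had a mean of 2.32 scaled FPKM in the GFP-positive libraries (4.31, 1.34 and 1.31 in 2, 4 and 7), and it was listed at 0 in GFP-negative 9 and 11 and stood at 0.0102 in M.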

How the results depend on the processing

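No paired analysis was possible because the groups share no replicate numbers. Over 18 alternatives the log2 change of each of the 10 genes stayed above 0 wherever the gene could be tested. The number of features that passed was 3862, and it was 1119 with no filter, 8120 with equal sums of FPKM, 11564 with library weights, 1851 with a length trend removed (an alternative chosen after seeing the data) and 37 to 5811 when 1 library was left out. Of the 10 genes 6 rose. With no filter 3 rose, with equal sums 5, with library weights 10, and with 1 library left out 0 to 7. With unnamed isoforms added 7 of the 10 rose, and with sums per assembled locus 8. Tdrd1 passed with library weights (limma adjusted p = 0.00873) and with sums per assembled locus (0.0489). Of the other pathway genes 5 rose. With no filter 1 rose, with equal sums 3, with library weights 8, with unnamed isoforms added 8, with sums per assembled locus 8, and with 1 library left out 0 to 5. With equal sums, 1 other pathway gene fell, with library weights 1, and with 1 library left out 0. Gata4 was at -1.77, and the locus that holds it was at 0.77 with sums per assembled locus, which can take in other genes. The causes were not tested. At a mean of at least 1 FPKM Tdrd1, Tdrd9 and Pld6 were below the filter, as were Tdrd1 and Tdrd9 without GFP-positive 2. Levels under 0.5 scaled FPKM rest on few aligned bases, down to 0.419 kb for Asz1 in GFP-negative 11.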
